A study of Mus musculus with 35 samples.

Results

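The transcription factors Emx1, Emx2, Lhx2, Otx1, Sox21, Meis2, Eomes and Pax6 are described here, 8 of the 54119 mouse genes quantified. They were listed as factors of telencephalic identity. Lhx2, Sox21 and Meis2 were chosen by their measured levels in the cortex libraries, so for these 3 every value that involves cortex is a description with no test, and the other 5 were tested in every comparison in which they passed the filter on low counts. The samples were 35 RNA-seq libraries of cells captured on magnetic beads with an antibody against ACSA2, an astrocyte surface antigen, from male C57BL/6JRj mice. From 8 to 9 weeks of age, for 4 months, they ate either a standard chow, SC, or a diet rich in fat and sugar, HFHS (58%). Each library came from a pool of 2 animals, and there were 6 libraries of hypothalamus on SC, 5 of hypothalamus on HFHS, 5 of hippocampus on SC, 7 of hippocampus on HFHS, 6 of cortex on SC and 6 of cortex on HFHS. Cortex cells were captured with larger reagent volumes on LS columns and the cells of the other regions on MS columns, so region and capture cannot be told apart in any comparison with cortex. The labels give no genotype other than the strain, and they do not say whether libraries of the same number in different regions came from the same animals.

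The telencephalon is the part of the forebrain that gives rise to cortex and hippocampus, whereas the hypothalamus forms outside it. Its dorsal wall is patterned by homeodomain proteins: Emx1 and Emx2 mark the dorsal (pallial) neuroepithelium, Lhx2 is a LIM homeodomain factor needed for cortical identity and Otx1 acts in the forebrain and later in deep-layer cortical neurons. Pax6, a paired-box factor of cortical radial glia, and Meis2, a TALE homeodomain protein that pairs with Pbx factors, are used more widely, also in the hypothalamus and eye. Sox21 belongs to the SOXB group of HMG-box factors that balance progenitor maintenance, and Eomes (Tbr2) is a T-box factor of intermediate progenitors and some neurons. Several of these genes stay expressed in adult astrocytes of the region where they acted in development.

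In GRCm38, with the GENCODE vM21 annotation, the genes on the plus strand are Emx1 (ENSMUSG00000033726.8) at chr6:85187438-85204462, Emx2 (ENSMUSG00000043969.4) at chr19:59458372-59465357, Lhx2 (ENSMUSG00000000247.11) at chr2:38339281-38369733, Eomes (ENSMUSG00000032446.14) at chr9:118478212-118486132 and Pax6 (ENSMUSG00000027168.21) at chr2:105668900-105697364. Those on the minus strand are Otx1 (ENSMUSG00000005917.15) at chr11:21994764-22002897, Sox21 (ENSMUSG00000061517.8) at chr14:118233232-118237030 and Meis2 (ENSMUSG00000027210.20) at chr2:115863064-116065839.

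The RefSeq start of Emx2 is shown because this gene differed strongly between regions and because an antisense gene, Emx2os, overlaps it. The window is the RefSeq promoter (GRCm38.p6, chr19:59458440-59458739, plus strand, 250 bases before to 50 after the RefSeq start). GENCODE starts the gene further upstream, at chr19:59458372, so by that annotation the window lies within the gene. Capitals mark the homeodomain core motif TAATTA, which reads the same on both strands.
Emx2: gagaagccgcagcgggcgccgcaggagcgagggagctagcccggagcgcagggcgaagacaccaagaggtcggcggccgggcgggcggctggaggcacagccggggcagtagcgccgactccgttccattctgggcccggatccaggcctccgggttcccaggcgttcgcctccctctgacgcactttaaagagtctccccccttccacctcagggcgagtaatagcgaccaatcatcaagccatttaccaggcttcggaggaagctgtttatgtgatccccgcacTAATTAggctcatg

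The motif is present in 5.29% of the 32851 RefSeq windows of this length and in 1 of the 9 windows that the table holds for 7 of the factors, that of Emx2. The other motifs searched on both strands were TGACAG (a MEIS-type motif, in 19.2% of all windows and in the downstream one of the Pax6 windows), ACAATG (a SOX-type motif, in 12.6% of all windows and in none of the 9) and TATAAA (in 13.6% of all windows and in that of Meis2). No window of these factors holds more than 1 of the 4 motifs, and a match is a description of letters. Otx1 has no entry in the table.

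RefSeq gives Lhx2 2 start windows on chromosome 2. Both are printed because transcript Lhx2-203, whose start lies in the upstream window, took different shares in different groups; GENCODE gives its 7 Lhx2 transcripts 7 different starts, and the downstream window lies beyond the start of the main one. Capitals mark CG dinucleotides, of which the upstream window (chr2:38339031-38339330, plus strand) has 34 and the downstream window (chr2:38351058-38351357, plus strand) has 29, where the median over all windows is 7.
Lhx2 upstream: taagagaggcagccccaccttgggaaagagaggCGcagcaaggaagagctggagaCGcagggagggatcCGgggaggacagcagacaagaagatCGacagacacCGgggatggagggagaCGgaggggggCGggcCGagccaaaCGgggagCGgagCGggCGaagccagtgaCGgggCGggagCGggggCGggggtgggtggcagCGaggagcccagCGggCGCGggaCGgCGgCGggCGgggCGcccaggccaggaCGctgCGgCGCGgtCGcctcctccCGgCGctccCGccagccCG
Lhx2 downstream: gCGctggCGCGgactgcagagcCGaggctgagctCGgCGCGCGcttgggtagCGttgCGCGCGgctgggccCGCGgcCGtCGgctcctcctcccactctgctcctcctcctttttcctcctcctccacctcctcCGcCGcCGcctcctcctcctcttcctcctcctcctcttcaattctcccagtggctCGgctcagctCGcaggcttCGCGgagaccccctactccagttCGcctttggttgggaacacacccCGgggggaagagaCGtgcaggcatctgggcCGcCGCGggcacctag
The windows of Emx1, Emx2 and Sox21 hold 37, 26 and 22 CG dinucleotides, those of Pax6 hold 18 and 16, that of Meis2 holds 13 and that of Eomes holds 10.

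Pax6 and Meis2 are each made with and without a short stretch of coding sequence, printed here in capitals with 15 bases of the spliced transcript on either side. The Pax6 stretch is the alternative exon 5a (chr2:105684751-105684792, plus strand, 42 bases), which inserts amino acids into the paired domain and changes how it contacts DNA. The Meis2 stretch is 21 bases at the edge of an exon (chr2:115867359-115867379, minus strand), read on the strand of the gene.
Pax6 exon 5a: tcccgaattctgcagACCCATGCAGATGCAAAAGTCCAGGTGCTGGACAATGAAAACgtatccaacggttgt
Meis2 exon edge: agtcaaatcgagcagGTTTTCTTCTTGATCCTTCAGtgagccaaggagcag

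The libraries held 47578560 to 65982495 estimated reads. All 10 astrocyte markers were detected in all groups, including Atp1b2, which encodes the ACSA2 antigen and ranged from 24.9 to 951 TPM, and Gfap, which ranged from 26.1 to 515 TPM. TPM is a level corrected for transcript length and scaled to a fixed total per library, and CPM is a read count scaled to the library without that correction. In cortex the mean log2 CPM of the astrocyte markers was 10.02 ± 0.44 for SC (SD, n = 6) and 9.85 ± 0.23 for HFHS (n = 6). It was 7.86 ± 0.38 (n = 6) and 8.51 ± 0.89 (n = 5) in hypothalamus, and 7.64 ± 1.14 (n = 5) and 7.51 ± 1.25 (n = 7) in hippocampus. The 7 oligodendrocyte markers gave 10.26 and 10.53 in cortex, 11.24 and 11.18 in hypothalamus and 11.87 and 11.89 in hippocampus. Their mean was above that of the astrocyte markers in every group. Choroid plexus markers exceeded the astrocyte level only in hippocampus, with 7.97 on SC and 8.39 on HFHS. Ependymal markers reached it only in hypothalamus on SC, with 7.87. Mural cell markers exceeded it only in hippocampus on HFHS, with 7.77. All fractions thus held much RNA of other cell types, and the share of each type was not tested. The 6 markers of glutamatergic neurons, among them the cortical and hippocampal genes Neurod2 and Neurod6, gave 4.54 and 4.11 in cortex, 3.20 and 2.95 in hippocampus and 1.32 and 1.38 in hypothalamus. In such bulk RNA, fewer cells of a type and less RNA per cell cannot be told apart. The region labels were checked with hypothalamic transcription factors: Rax reached 10.5 to 38.6 TPM in the hypothalamus libraries and at most 1.76 TPM in all others.

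Summed over transcripts, Lhx2 had the highest mean level of the 8 factors in all 6 groups and Eomes the lowest. In hypothalamus on SC the mean TPM was 11.9 for Lhx2, 7.90 for Pax6, 5.41 for Sox21, 5.07 for Otx1, 3.06 for Meis2, 0.831 for Emx1, 0.565 for Emx2 and 0.0138 for Eomes. The neighbours from Lhx2 down to Otx1, and Emx1 and Emx2, differed by less than the larger of their SDs. In hippocampus on SC the order was Lhx2 (19.3 TPM), Meis2 (9.65), Pax6 (7.34), Emx2 (6.79), Otx1 (4.47), Emx1 (3.84), Sox21 (1.41) and Eomes (0.276), where the neighbours from Meis2 down to Emx1 differed by less than the larger SD. In cortex on SC it was Lhx2 (117 TPM), Meis2 (23.0), Emx2 (20.5), Pax6 (14.9), Sox21 (14.4), Otx1 (8.28), Emx1 (1.14) and Eomes (0.0327). Lhx2 stood apart from Meis2 there, with no overlap of their libraries, whereas Meis2 and Emx2, Pax6 and Sox21, and Sox21 and Otx1 lay within the larger SD of each other. Emx2 thus moved from among the lowest levels in hypothalamus to among the highest in cortex.

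**Figure D1:**
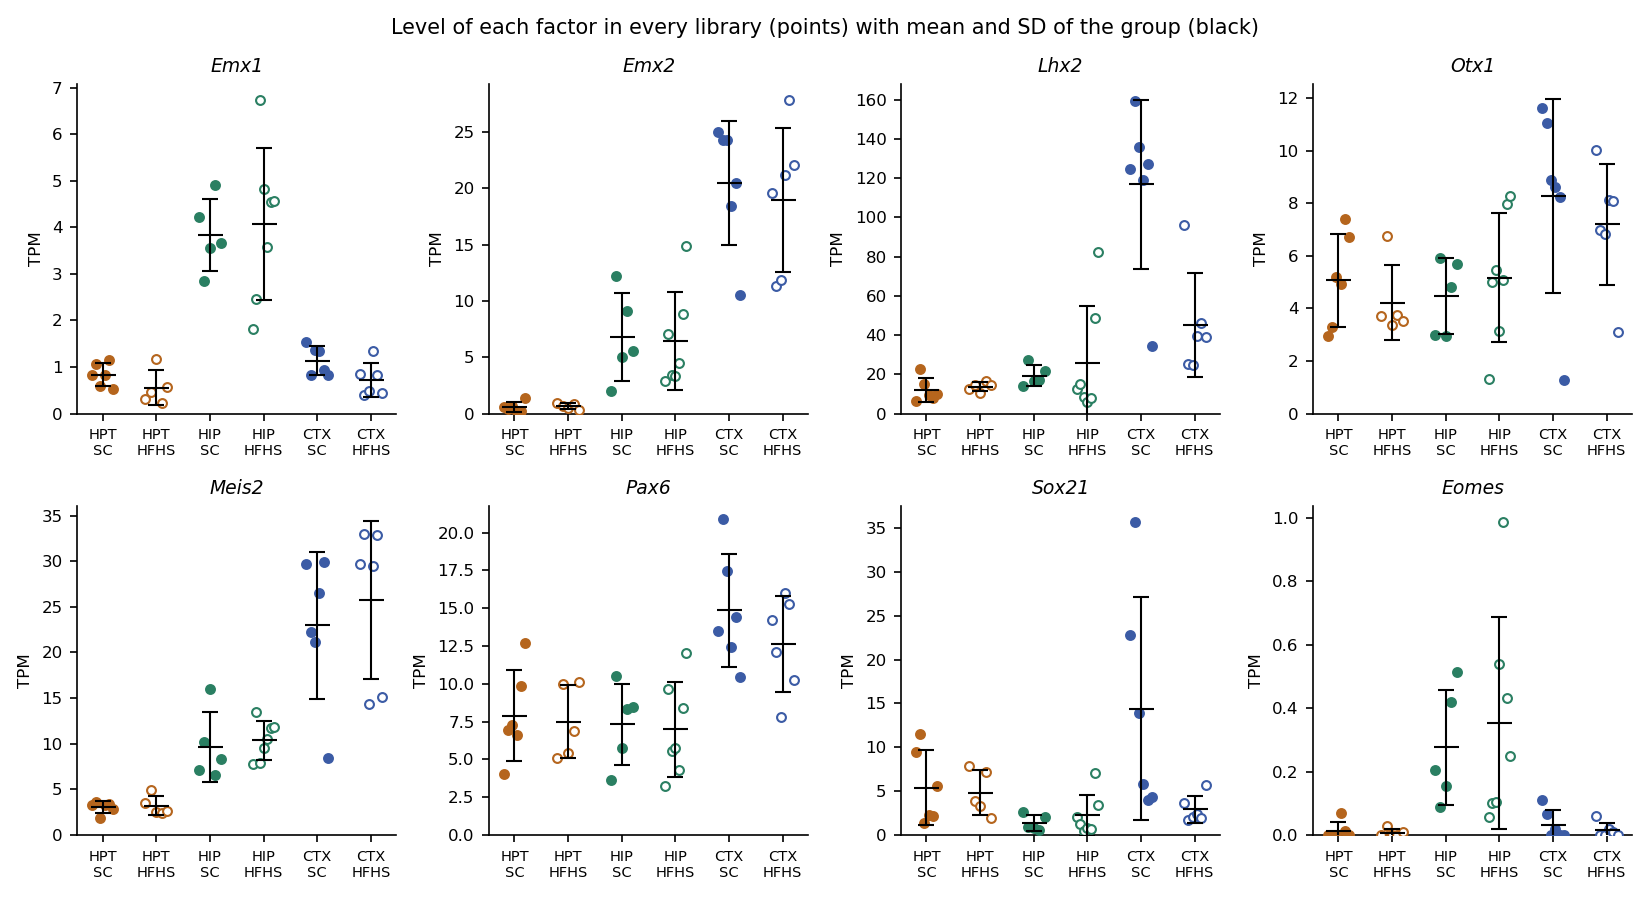
TPM of each factor (vertical axis, one scale per panel, starting at 0) in hypothalamus (HPT), hippocampus (HIP) and cortex (CTX) on SC (filled) and HFHS (open); each point is a library, and black marks give the mean and SD (the SD bar of Lhx2 in hippocampus on HFHS is cut at 0). Emx2 and Meis2 step up from hypothalamus to hippocampus to cortex, Emx1 is highest in hippocampus, and Lhx2 reaches 160 TPM in cortex on SC.

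Between hypothalamus and hippocampus, Emx1, Emx2 and Meis2 were lower in hypothalamus on both diets, and Lhx2, Otx1, Pax6 and Sox21 did not pass the threshold (edgeR's quasi-likelihood test with Benjamini-Hochberg adjustment over 21574 genes, adjusted p under 0.05). Eomes also passed, but it reached 10 reads in no hypothalamus library and entered the test only through hippocampus, so it had to differ and is given below by its levels. Without Eomes, 3 of 7 factors passed on each diet, all in the direction of lower levels in hypothalamus; of all genes tested, 10.0% passed on SC (4.13% lower, 5.86% higher) and 6.42% on HFHS (2.18% lower, 4.24% higher). The median log2 fold change of all genes was 0.02 on SC and 0.01 on HFHS. The split of calls moved with the scaling: on SC it was 1265 higher and 892 lower, against 1798 and 439 on log2(TPM + 0.1), and on HFHS 915 and 470, against 806 and 655 with upper quartile factors.

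Against cortex, the 5 factors not chosen for their cortex values were tested. Emx2 and Pax6 were lower in both other regions on both diets. Otx1 was lower in hypothalamus on both diets and in hippocampus on SC. Emx1 was higher in hippocampus than in cortex on both diets, and lower in hypothalamus than in cortex on SC. In hypothalamus against cortex, 4 of the 4 other than Eomes passed on SC, where 36.1% of all genes did (18.3% lower, 17.7% higher), and 3 of 4 on HFHS, where 23.9% did (9.21% lower, 14.6% higher). In hippocampus against cortex, 4 of 4 passed on SC, where 30.8% of all genes did (15.3% lower, 15.4% higher), and 3 of 4 on HFHS, where 24.2% did (10.8% lower, 13.4% higher). Eomes is left out of these counts because it reached 10 reads in 1 of 12 cortex libraries and in no hypothalamus library. On log2(TPM + 0.1) the calls leaned to higher levels outside cortex: 7385 higher and 1392 lower for hypothalamus on SC, against 3827 and 3955 in edgeR, and 4202 and 987 on HFHS, against 3160 and 1986. For hippocampus they were 5934 and 1453 on SC, against 3332 and 3304, and 4060 and 1352 on HFHS, against 2895 and 2327.

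**Figure D2:**
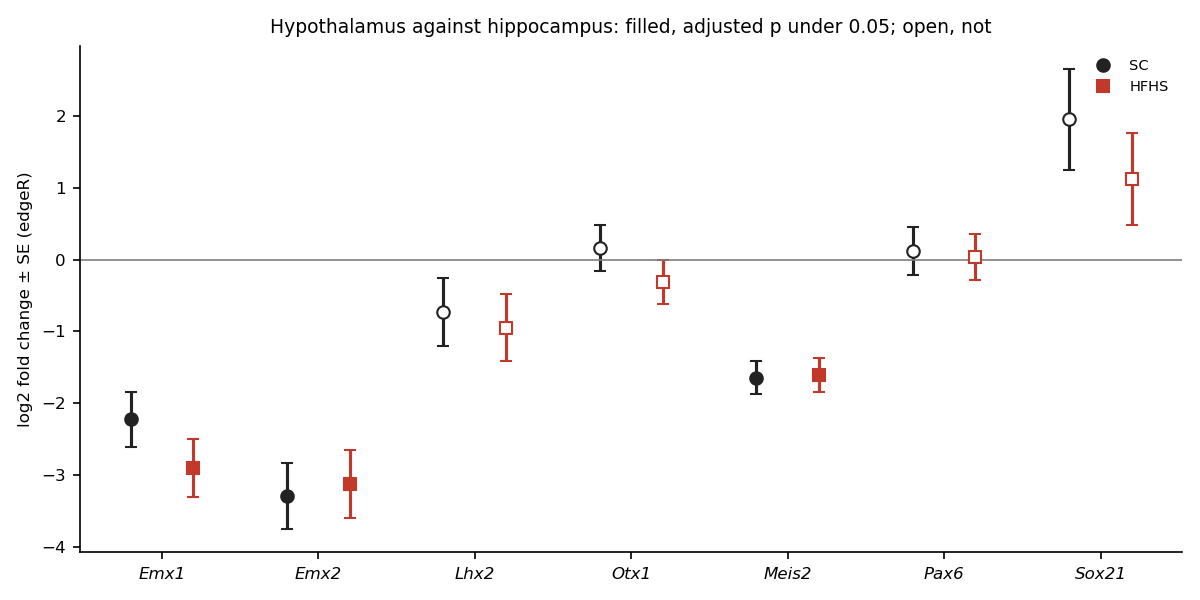
Log2 fold change of hypothalamus over hippocampus (vertical axis, edgeR) for 7 factors on SC (circles) and HFHS (squares), with the SE as bars; filled symbols have an adjusted p under 0.05. Emx1, Emx2 and Meis2 lie at or below -1.61 on both diets and are filled.

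Emx2, the homeobox gene that sets the caudal and medial pallium and the hippocampus, ranged from 0.139 to 1.40 TPM in hypothalamus on SC with a median of 0.481. In hypothalamus on HFHS the libraries held 0.915, 0.669, 0.495, 0.869 and 0.299 TPM. In hippocampus they held 2.02, 12.2, 5.06, 9.08 and 5.55 TPM on SC, and 2.93, 4.53 and 14.9 TPM (lowest, median and highest) on HFHS. All hippocampus libraries were above all hypothalamus libraries of either diet; between these regions 9.60% of all genes tested had TPM ranges that did not overlap on SC and 5.34% on HFHS. The log2 fold change of hypothalamus over hippocampus was -3.30 ± 0.46 (SE) on SC (edgeR adjusted p = 4.43e-05) and -3.13 ± 0.48 on HFHS (edgeR adjusted p = 8.41e-05). In cortex the lowest, median and highest libraries held 10.6, 22.4 and 25.0 TPM on SC and 11.3, 20.4 and 27.8 TPM on HFHS. All cortex libraries were above all hypothalamus libraries, where 18.8% of all genes tested had separate TPM ranges on SC and 13.9% on HFHS. The ranges of hippocampus and cortex overlapped, with 5 of 6 cortex libraries above all hippocampus libraries on SC and 4 of 6 on HFHS. Against cortex, the log2 fold change of hypothalamus was -5.36 ± 0.50 on SC (edgeR adjusted p = 6.27e-10) and -5.02 ± 0.53 on HFHS (edgeR adjusted p = 1.16e-08). That of hippocampus was -2.06 ± 0.45 on SC (edgeR adjusted p = 0.000962) and -1.89 ± 0.40 on HFHS (edgeR adjusted p = 0.000745).

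Astrocyte marker levels stood higher in cortex than in the other regions, and their values are given beside Emx2. The hippocampus library on SC with the highest astrocyte marker level (number 2, mean log2 CPM 9.28) had 12.2 TPM of Emx2, beside 10.6 TPM in the cortex library on SC with the lowest (number 6, 9.38), which also had the shortest transcripts of the series. Hippocampus library 2 on HFHS had 7.09 TPM at a marker level of 9.13. The hippocampus library with the lowest marker level (HFHS number 3, 6.15) had 3.42 TPM. In hypothalamus 10 of 11 libraries had marker levels of 7.42 to 8.34, and HFHS library 2, at 10.10, held 0.669 TPM of Emx2 and 4.91 TPM of Meis2. Glutamatergic neuron markers had the same order of regions as Emx2 and Meis2. From hypothalamus to hippocampus to cortex they gave 1.32, 3.20 and 4.54 on SC and 1.38, 2.95 and 4.11 on HFHS. The part of astrocyte or neuron content in the differences between the 3 regions was not tested.

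**Figure D3:**
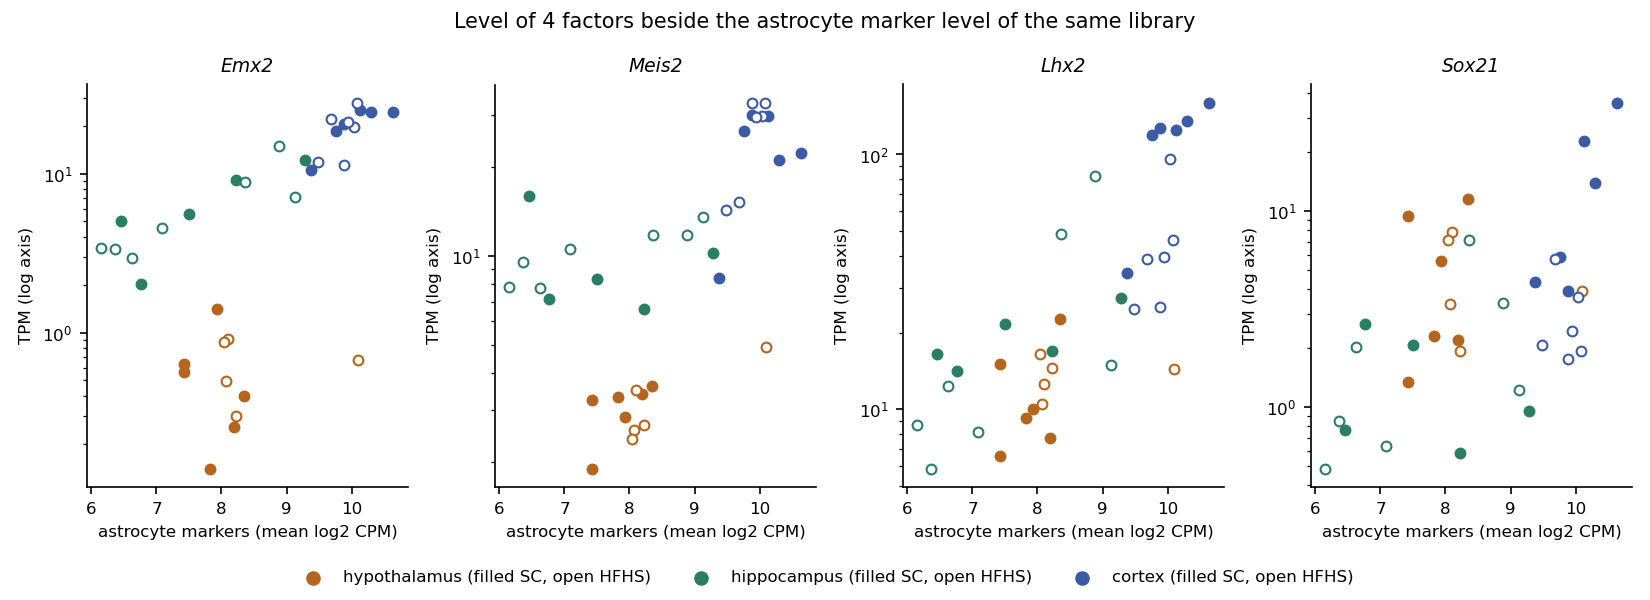
TPM (log axis) of Emx2, Meis2, Lhx2 and Sox21 against the mean log2 CPM of 10 astrocyte markers in the same library (horizontal axis); each point is 1 of 35 libraries, filled for SC and open for HFHS. The hypothalamus points of Emx2, up to a marker level of 10.10, stay at or under 1.40 TPM; hippocampus points reach a marker level of 9.28 and cortex points begin at 9.38.

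Emx2os, an antisense RNA on the opposite strand, has a transcript that starts inside the printed window, and it shares 264 of the 3002 exon bases of Emx2. The libraries do not mark strand, so reads in this overlap cannot be assigned to either gene. Emx2os averaged 0.110 TPM in hypothalamus, 1.26 in hippocampus and 4.17 in cortex on SC, and its log2 fold change of hypothalamus over hippocampus was -3.52 ± 0.66 (edgeR adjusted p = 0.000955). The order of the 3 regions was the same as for Emx2.

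Emx1, the paralog whose locus is widely used to mark dorsal telencephalic lineages, was higher in hippocampus than in both other regions on both diets. Hippocampus libraries held 4.22, 2.84, 3.56, 4.91 and 3.66 TPM on SC and ranged from 1.82 through a median of 4.54 to 6.74 TPM on HFHS. Cortex libraries held 0.826, 1.14 and 1.53 TPM (lowest, median and highest) on SC and 0.393, 0.650 and 1.34 TPM on HFHS. Hypothalamus libraries held 0.519, 0.827 and 1.15 TPM on SC, and on HFHS 0.322, 0.461, 1.18, 0.235 and 0.578 TPM. Hippocampus did not overlap with either other region on the same diet, while hypothalamus and cortex overlapped. Between hippocampus and cortex, 19.5% of all genes tested had separate TPM ranges on SC and 6.17% on HFHS. Between hypothalamus and hippocampus the shares were 9.60% and 5.34%. The log2 fold change of hypothalamus over hippocampus was -2.23 ± 0.38 on SC (edgeR adjusted p = 0.000411) and -2.91 ± 0.41 on HFHS (edgeR adjusted p = 2.36e-05). That of hippocampus over cortex was 1.21 ± 0.38 on SC (edgeR adjusted p = 0.0143) and 2.33 ± 0.37 on HFHS (edgeR adjusted p = 1.98e-05). Hypothalamus over cortex gave -1.02 ± 0.36 on SC (edgeR adjusted p = 0.0276) and -0.57 ± 0.39 on HFHS (edgeR adjusted p = 0.310). The call on SC was lost without hypothalamus library 3, without hypothalamus library 6 and without cortex library 6 (edgeR adjusted p = 0.0842 without the last). It was also lost with the replicate block (edgeR adjusted p = 0.0563), with limma voom (adjusted p = 0.0594), without the filter on low counts (edgeR adjusted p = 0.0638) and without the 3 libraries of short transcripts, which are number 6 of hypothalamus on SC and of cortex on both diets (edgeR adjusted p = 0.110). On log2(TPM + 0.1) and log2(TPM + 1) the differences were -0.42 and -0.22 (limma adjusted p = 0.309 and 0.362). The counts behind these levels were low, with 9 to 44 reads per hypothalamus library, 14 to 62 per cortex library and 61 to 261 per hippocampus library.

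Most of the Emx1 signal came from Emx1-202, which is annotated as a retained intron and not as a coding transcript. It lacks the first exon of the coding transcript, which has 926 of that transcript's 1561 bases, and 623 of its own 1258 bases lie outside the coding transcript's exons. Emx1-202 took 87.5% of Emx1 TPM in hippocampus on SC and 95.1% on HFHS, 94.3% and 93.1% in hypothalamus, and 66.5% and 87.4% in cortex. The coding Emx1 transcript averaged 0.481 TPM in hippocampus on SC, 0.382 TPM in cortex on SC, and 0.0473 TPM in hypothalamus on SC. In it the hippocampus and cortex libraries on SC overlapped, at 0.110 to 0.896 and 0.0598 to 0.841 TPM. Most of the excess of Emx1 in hippocampus over cortex on SC was Emx1-202, at 3.36 ± 0.88 TPM (n = 5) against 0.757 ± 0.246 TPM (n = 6). Salmon divides reads between transcripts by an estimate, and no error of that division was available.

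**Figure D4:**
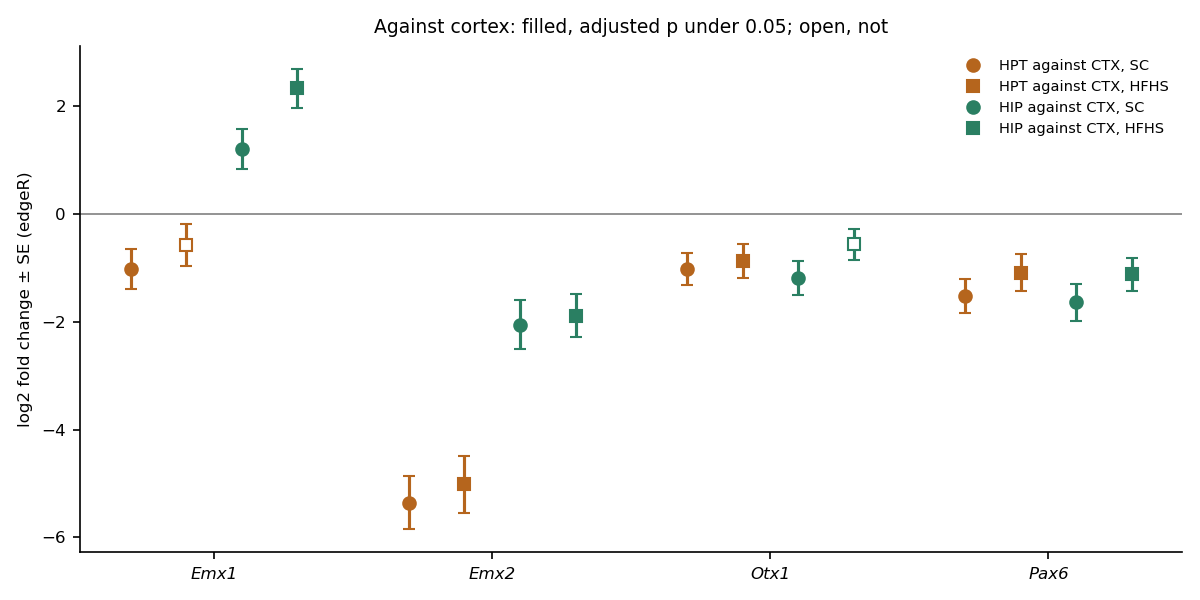
Log2 fold change over cortex (vertical axis, edgeR) of hypothalamus and hippocampus on SC (circles) and HFHS (squares) for 4 of the factors not chosen for their cortex values, with the SE as bars; filled symbols have an adjusted p under 0.05. Of these 4, Emx1 lies above 0 for hippocampus, at 1.21 and 2.33, and Emx2 in hypothalamus lies at -5.36 and -5.02.

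Pax6, which directs neurogenesis in cortical radial glia and is kept in many adult astrocytes, had overlapping levels in hypothalamus and hippocampus. Its lowest, median and highest libraries held 4.02, 7.09 and 12.7 TPM in hypothalamus on SC. In hypothalamus on HFHS the libraries held 5.11, 9.99, 5.43, 6.88 and 10.1 TPM, and in hippocampus on SC 3.63, 10.5, 5.73, 8.33 and 8.47 TPM. Hippocampus on HFHS ranged from 3.27 through 5.78 to 12.0 TPM. These 4 groups overlapped throughout. The log2 fold change of hypothalamus over hippocampus was 0.12 ± 0.33 on SC (edgeR adjusted p = 0.890) and 0.03 ± 0.32 on HFHS (edgeR adjusted p = 0.975). Cortex was higher, with 10.5, 14.0 and 20.9 TPM on SC and 7.83, 13.2 and 16.0 TPM on HFHS. Of the cortex libraries, 4 of 6 on SC and 5 of 6 on HFHS were above all hypothalamus libraries of the same diet. On SC, the log2 fold change over cortex was -1.52 ± 0.32 for hypothalamus (edgeR adjusted p = 0.000349) and -1.64 ± 0.34 for hippocampus (edgeR adjusted p = 0.000582). On HFHS it was -1.09 ± 0.34 for hypothalamus (edgeR adjusted p = 0.0167) and -1.12 ± 0.30 for hippocampus (edgeR adjusted p = 0.00664). The call for hypothalamus on HFHS was lost without hypothalamus library 4 (edgeR adjusted p = 0.0549) and on log2(TPM + 1) (-0.69, limma adjusted p = 0.0727).

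The exon 5a shown above was present in 9 and absent from 7 of the Pax6 transcripts that span its position or its junction, and 26 Pax6 transcripts were quantified. Transcripts with it held 28.9% ± 13.8 (SD, n = 6) of the TPM of both kinds in hypothalamus on SC and 34.9% ± 10.8 (n = 5) on HFHS. In hippocampus they held 32.6% ± 11.7 (n = 5) and 34.9% ± 12.7 (n = 7), and in cortex 36.5% ± 13.7 (n = 6) and 31.5% ± 14.2 (n = 6). The group means lay within the SD of each other, and single libraries spread from 9.27% to 59.1%, so no regional difference of the exon was visible at this precision. Pax6os1, the antisense RNA at this locus, shares 0 exon bases with Pax6. It averaged 0.798, 1.34 and 1.73 TPM in hypothalamus, hippocampus and cortex on SC, and its difference of -0.55 ± 0.81 between hypothalamus and hippocampus did not pass (edgeR adjusted p = 0.768).

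Otx1, a bicoid-class homeobox gene of the forebrain, held 2.95, 5.05 and 7.39 TPM (lowest, median and highest) in hypothalamus on SC and 3.71, 6.76, 3.36, 3.73 and 3.53 TPM on HFHS. Hippocampus libraries held 2.98, 5.92, 2.93, 4.82 and 5.69 TPM on SC and ranged from 1.31 through 5.08 to 8.26 TPM on HFHS. The regions overlapped, and the log2 fold change of hypothalamus over hippocampus was 0.16 ± 0.31 on SC (edgeR adjusted p = 0.833) and -0.31 ± 0.31 on HFHS (edgeR adjusted p = 0.636). Cortex libraries held 1.26, 8.76 and 11.6 TPM on SC and 3.12, 7.55 and 10.0 TPM on HFHS. On SC 5 of 6 cortex libraries were above all libraries of both other regions, and library 6, with 1.26 TPM, was below them all. Over cortex on SC the log2 fold change was -1.02 ± 0.30 for hypothalamus (edgeR adjusted p = 0.00815) and -1.18 ± 0.32 for hippocampus (edgeR adjusted p = 0.00556). On HFHS it was -0.87 ± 0.32 for hypothalamus (edgeR adjusted p = 0.0450) and -0.56 ± 0.29 for hippocampus (edgeR adjusted p = 0.159). The call for hypothalamus on HFHS was lost in 8 of 11 fits that left out a library (highest edgeR adjusted p 0.116). On log2(TPM + 1) none of the 3 Otx1 calls was kept, with differences of -0.49, -0.63 and -0.63 (limma adjusted p = 0.256, 0.218 and 0.175). The main coding transcript of Otx1 held 82.8% to 95.1% of Otx1 TPM by group.

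Lhx2, which maintains cortical progenitors and suppresses hippocampal organizer and astrocyte fates in the mouse embryo, was spread widely. Hypothalamus libraries held 6.58, 9.62 and 22.6 TPM (lowest, median and highest) on SC and 12.6, 14.4, 10.4, 16.4 and 14.5 TPM on HFHS. Hippocampus libraries held 14.1, 27.4, 16.5, 16.9 and 21.5 TPM on SC. On HFHS the 7 hippocampus libraries held 12.3, 14.8, 8.65, 5.83, 8.10, 48.9 and 82.2 TPM, so libraries 6 and 7 were above all others of that region and 4 of the remaining 5 were below all SC libraries. The log2 fold change of hypothalamus over hippocampus was -0.73 ± 0.47 on SC (edgeR adjusted p = 0.375) and -0.95 ± 0.47 on HFHS (edgeR adjusted p = 0.246). Leaving out a library moved the HFHS value between -1.13 and -0.27, and it did not pass in any of these 12 fits. Hippocampus libraries 6 and 7 on HFHS also held the highest Sox21 levels of that region, at 7.10 and 3.39 TPM. Their astrocyte marker levels were 8.36 and 8.88, against 6.15 to 9.13 in the other 5 libraries, and their oligodendrocyte levels of 11.38 and 11.09 were the lowest of the group. Another gene, Dapk3, held 38.8 and 29.0 TPM in libraries 6 and 7. It held 48.1 TPM in library 1 and 2.14, 2.15, 2.22 and 1.04 TPM in libraries 2 to 5. The part of these marker levels and of Dapk3 in the Lhx2 and Sox21 values was not tested.

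In cortex Lhx2 held 125, 160, 136, 119, 127 and 34.3 TPM on SC and 96.2, 25.3, 24.8, 39.7, 46.2 and 38.9 TPM on HFHS. These values put Lhx2 on the list and are a description. On SC 5 of 6 libraries were above all HFHS libraries, and library 6 lay within them. On HFHS library 1 stood above the other 5. The group means were 117 ± 42.8 and 45.2 ± 26.4 TPM, a ratio of HFHS to SC of 0.387. The levels of Dapk3, which also varied between these cortex libraries, are given below beside Sox21. All cortex libraries were above all hypothalamus libraries of the same diet, by 9.84-fold in the mean on SC and 3.30-fold on HFHS. Between these regions 18.8% of all genes tested had separate TPM ranges on SC and 13.9% on HFHS. On HFHS the cortex libraries overlapped with hippocampus.

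The main Lhx2 transcript held 86.7% of all Lhx2 TPM. Of the TPM of this transcript and Lhx2-203, which begins in the upstream window, Lhx2-203 held 1.69% ± 1.54 (n = 6) in hypothalamus on SC and 10.3% ± 1.68 (n = 5) in hippocampus on SC. The libraries of these groups did not overlap, and the transcript level was 0.197 against 1.93 TPM. On HFHS the shares were 6.57% ± 3.74 (n = 5) and 8.16% ± 4.17 (n = 7), which overlapped, and in cortex they were 6.62% ± 2.96 on SC and 6.99% ± 3.43 on HFHS. The contrast on SC was noticed among the values and has no test. Lhx2-203 rested on a mean of 9.26 estimated reads per library in hypothalamus on SC, where its lowest library held 0 TPM. In hippocampus on SC the mean was 80.1 reads. The division of reads between transcripts is an estimate without a known error here, and the share of all transcripts with separate ranges was not counted.

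**Figure D5:**
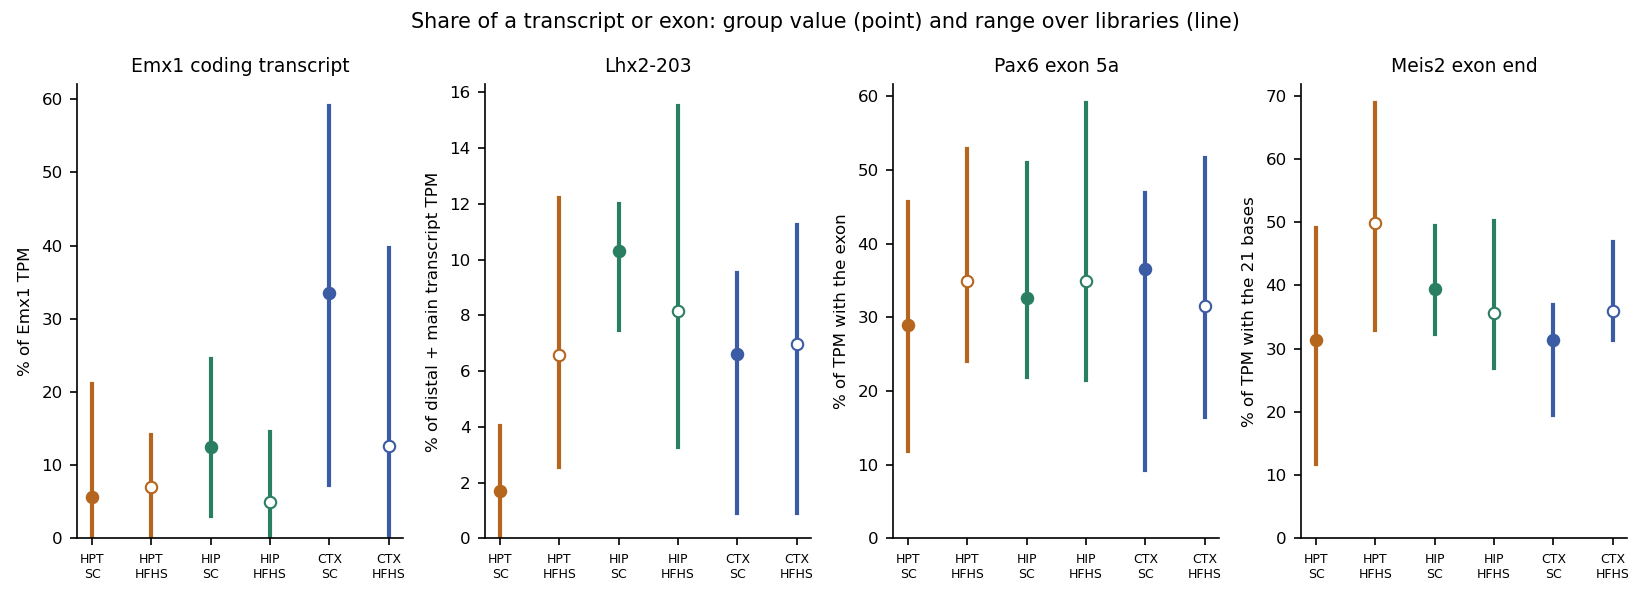
Percent of TPM held by the coding Emx1 transcript, by Lhx2-203, by Pax6 transcripts with exon 5a and by Meis2 transcripts with the 21-base stretch (vertical axes, starting at 0) in each group; points give the group value and lines the range over libraries. The Lhx2-203 lines of hypothalamus and hippocampus on SC do not overlap, and those of Pax6 exon 5a overlap in all groups.

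Meis2, a cofactor of Hox and Pax6 proteins that is expressed in forebrain neurons and glia, was higher in hippocampus than in hypothalamus on both diets. Hypothalamus libraries held 1.90, 3.28 and 3.64 TPM (lowest, median and highest) on SC and 3.50, 4.91, 2.56, 2.40 and 2.68 TPM on HFHS. Hippocampus libraries held 7.14, 10.2, 16.0, 6.61 and 8.32 TPM on SC and ranged from 7.77 through 10.6 to 13.5 TPM on HFHS. The regions did not overlap on either diet, where 9.60% of all genes tested had separate TPM ranges on SC and 5.34% on HFHS. The log2 fold change of hypothalamus over hippocampus was -1.65 ± 0.23 on SC (edgeR adjusted p = 4.39e-05) and -1.61 ± 0.23 on HFHS (edgeR adjusted p = 3.81e-05), and it stayed between -1.77 and -1.48 in all fits that left out a library. In cortex, where Meis2 was chosen for its values, the libraries held 8.39, 24.4 and 29.9 TPM on SC and 14.3, 29.6 and 33.0 TPM on HFHS, with group means of 23.0 ± 8.03 and 25.8 ± 8.67 TPM. The HFHS to SC ratio there was 1.12 on TPM and 0.997 on CPM.

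Of the 19 Meis2 transcripts quantified, 7 held the printed 21 bases and 6 skipped them. The share with the stretch was 31.4% ± 14.1 (n = 6) in hypothalamus on SC, 49.9% ± 16.2 (n = 5) on HFHS, 39.4% ± 6.94 (n = 5) and 35.7% ± 9.00 (n = 7) in hippocampus, and 31.4% ± 6.10 (n = 6) and 35.9% ± 6.01 (n = 6) in cortex. The ranges of all 6 groups overlapped, the widest being those of hypothalamus, from 11.8% to 49.1% on SC and from 32.9% to 68.9% on HFHS. A 95-base cassette exon was carried by 63.5% ± 13.7 (SD, n = 35) of the TPM of coding Meis2 transcripts.

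Sox21, an HMG-box factor that counters Sox1 to Sox3 activity in neural progenitors, had its lowest levels in hippocampus. Hypothalamus libraries held 1.34, 3.95 and 11.5 TPM (lowest, median and highest) on SC and 7.86, 3.92, 3.36, 7.16 and 1.93 TPM on HFHS. Hippocampus libraries held 2.66, 0.958, 0.771, 0.583 and 2.09 TPM on SC and ranged from 0.486 through 1.22 to 7.10 TPM on HFHS. The regions overlapped, with 3 of 6 hypothalamus libraries above all hippocampus libraries on SC. The log2 fold change of hypothalamus over hippocampus was 1.95 ± 0.71 on SC (edgeR adjusted p = 0.0743) and 1.13 ± 0.64 on HFHS (edgeR adjusted p = 0.328). The call depended on the fit. On SC it passed with DESeq2 (adjusted p = 0.0219) and when only the 2 groups entered the edgeR fit (adjusted p = 0.0444). With the replicate block it passed on both diets, at 1.62 on SC (edgeR adjusted p = 0.0169) and 2.15 on HFHS (edgeR adjusted p = 0.00134). In cortex, where Sox21 was chosen for its values, the libraries held 22.8, 35.7, 13.9, 5.83, 3.94 and 4.38 TPM on SC and 3.67, 1.76, 2.07, 2.44, 1.94 and 5.72 TPM on HFHS. Libraries 1 to 3 on SC were above all others of cortex, and libraries 5 and 6 on SC lay within the HFHS range. Dapk3 also varied between these cortex libraries. In the same order it held 40.3, 38.0, 36.8, 27.8, 4.41 and 0.798 TPM on SC. On HFHS it held 2.41, 1.15, 2.57, 1.20, 1.71 and 0.259 TPM. What varies with Dapk3 cannot be told apart from diet in most of these cortex libraries. Dapk3 also varied within a diet in the other regions. In hypothalamus on SC, libraries 1 to 6 held 59.2, 49.8, 6.64, 25.8, 29.8 and 46.7 TPM of Dapk3. Their Sox21 levels were 9.47, 11.5, 1.34, 2.31, 2.20 and 5.60 TPM. On HFHS, in the order of the Sox21 values above, Dapk3 held 42.1, 33.1, 15.4, 51.2 and 4.70 TPM. Hippocampus libraries on SC held 48.9, 0.856, 35.2, 1.69 and 36.3 TPM of Dapk3. The part of Dapk3 in the Sox21 and Lhx2 values was not tested in any region. Sox21 is a gene of 1 exon, and 713 of its 3799 bases overlap the opposite-strand RNA Gm4675, from which reads cannot be told apart here.

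Eomes, which marks intermediate progenitors of the cortex and of the adult dentate gyrus, was at the edge of detection. Hippocampus libraries held 0.205, 0.0886, 0.156, 0.419 and 0.513 TPM on SC and ranged from 0.0568 through 0.251 to 0.988 TPM on HFHS, which corresponds to 6 to 100 reads. Hypothalamus libraries held 0 to 0.0710 TPM with at most 5 reads, and 7 of 11 were listed at 0. Cortex libraries held 0 to 0.112 TPM with at most 11 reads, and 6 of 12 were at 0. All hippocampus libraries were above 0, and they did not overlap with hypothalamus on the same diet. Eomes entered the test only through hippocampus, so this separation from hypothalamus is a description. Between these regions 9.60% of all genes tested had separate TPM ranges on SC and 5.34% on HFHS. Of the 4155 exon bases of Eomes, 118 are shared with the antisense gene Gm33460. The 4 neuroblast markers gave 1.95 and 2.12 (mean log2 CPM) in hippocampus on SC and HFHS, 1.59 and 1.12 in hypothalamus and 0.73 and 1.05 in cortex, and the 4 Cajal-Retzius markers gave 1.70 and 1.42, 1.88 and 1.28, and -1.42 and -1.78. Their part in the Eomes reads was not tested.

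The diets were compared within each region, and 0 of the factors tested passed in any region: 0 of 7 in hypothalamus, 0 of 8 in hippocampus and 0 of 4 in cortex apart from the 3 chosen there. Of all genes, 0 of 19272, 0 of 19036 and 0 of 17844 passed in edgeR (0% in each), with 1639, 984 and 1652 at an unadjusted p under 0.05. DESeq2 called 87, 15 and 504 genes and limma voom with quality weights 2, 0 and 517. In cortex edgeR called 515 genes without the 3 libraries of short transcripts, 412 with the replicate block, 32 without the filter on low counts and 28 with RLE factors, and in hypothalamus 8 without those libraries. The tested factors were not called in any of these fits. In hypothalamus the means on SC and HFHS were 11.9 and 13.7 TPM for Lhx2, 7.90 and 7.50 for Pax6, 3.06 and 3.21 for Meis2, and 0.565 and 0.649 for Emx2, and the diets overlapped for all 8 factors, where 0.597% of all genes tested had separate ranges. In hippocampus they were 3.84 and 4.08 TPM for Emx1, 6.79 and 6.44 for Emx2, 7.34 and 6.99 for Pax6, and 9.65 and 10.4 for Meis2, again with overlap for all 8 factors (0.441% of all genes had separate ranges). In cortex all 8 factors overlapped between diets (0.476% of all genes had separate ranges). Emx1 gave the smallest p of the 4 tested: 4 of 6 HFHS libraries were below all SC libraries, and the log2 fold change was -0.88 ± 0.42 (edgeR unadjusted p = 0.0553, adjusted p = 0.553). Emx2, Pax6 and Otx1 had means of 20.5 and 19.0, 14.9 and 12.6, and 8.28 and 7.19 TPM on SC and HFHS there. The diet difference was also compared between regions, with 0 of 8 factors past the threshold between hypothalamus and hippocampus and 0 of 5 in each comparison with cortex, where 0 of 21574 genes (0%) passed in edgeR. At an unadjusted p under 0.05 there were 433 genes between hypothalamus and hippocampus, 2496 between hypothalamus and cortex and 2007 between hippocampus and cortex, and DESeq2 called 4, 141 and 23. Between hypothalamus and cortex edgeR called 299 with the replicate block and 475 without the 3 libraries of short transcripts, and limma voom called 591. A p that misses the threshold does not show that the diets act alike on these genes.

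Other genes of the same patterning system were read from lists. Of 17 other telencephalic transcription factors, 4 were lower and 0 higher in hypothalamus than in hippocampus on SC, with a median log2 fold change of -1.25 beside 0.02 for all genes. Among them were Neurod6, a bHLH gene of pallial glutamatergic neurons (-3.16 ± 0.55), and Dmrta2 (-1.92 ± 0.62), with edgeR adjusted p of 0.000431 and 0.0441. Neurod6 is also 1 of the glutamatergic neuron markers whose level differed between these regions. Of all genes 4.13% were lower and 5.86% higher there. On HFHS 6 were lower and 0 higher, beside 2.18% and 4.24% of all genes. In fits within 1 region, 17 of these factors passed the filter on low counts in hippocampus and 14 in hypothalamus. A gene that entered only through hippocampus had to come out lower in hypothalamus, so these counts are a description. Dmrt3 was low in hypothalamus and is also given by its levels below. Against cortex, hypothalamus had 11 lower and 1 higher of the 17 on SC, where 18.3% and 17.7% of all genes were, and 9 and 0 on HFHS, where 9.21% and 14.6% were. Hippocampus had 6 lower and 2 higher on SC, where 15.3% and 15.4% of all genes were, and 5 and 3 on HFHS, where 10.8% and 13.4% were. Of 8 tested ventral telencephalic factors, 2 were higher in hypothalamus than in hippocampus on SC and 3 on HFHS, and 0 were lower on either diet. Among them was Isl1 (3.98 ± 1.22 on SC), which acts in hypothalamic development too. Of 7 tested hypothalamic factors 5 were higher in hypothalamus and 0 lower on each diet, led on SC by Nkx2-4, Six6, Rax and Nkx2-1, the last with 6.53 ± 1.99 TPM (n = 6) in hypothalamus and 0.707 ± 0.494 TPM (n = 5) in hippocampus on SC. In fits within 1 region, 7 hypothalamic factors passed the filter on low counts in hypothalamus and 4 in hippocampus. For the ventral factors it was 6 and 3. A gene that entered only through hypothalamus had to come out higher there, so the counts of these 2 lists and the value of Isl1 are a description.

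Of 7 tested nearest paralogs of the factors, Meis3 was higher in hypothalamus than in hippocampus on SC (0.73 ± 0.23, edgeR adjusted p = 0.0378), opposite in sign to Meis2, and 0 were lower, where 5.86% of all genes were higher and 4.13% lower. On HFHS 0 of the 7 were higher and 1 lower, beside 4.24% and 2.18% of all genes. Otx2, the paralog of Otx1 and a gene of choroid plexus epithelium, had 50.1 ± 43.7 TPM (n = 5) in hippocampus, 11.3 to 19.3 TPM in hypothalamus and 3.12 ± 4.17 TPM (n = 6) in cortex on SC, with -1.76 ± 0.71 between the first pair (edgeR adjusted p = 0.113). Hippocampus library 3 on SC had the lowest Otx2 level (3.71 TPM) and the lowest choroid plexus marker level (3.11) of its group, and library 5 the highest of both (98.7 TPM and 10.22); the part of choroid plexus RNA was not tested. Of 10 genes listed as LIM homeodomain cofactors, Lmo3 (1.70 ± 0.32), Ldb2 (1.75 ± 0.40) and Ssbp4 (1.03 ± 0.26) were higher in hypothalamus and 0 were lower (edgeR adjusted p = 0.000864, 0.00460 and 0.00829). Of 10 TALE partners of Meis2, Pbx4 (1.93 ± 0.41), Tgif1 (1.13 ± 0.30) and Meis3 were higher and 0 lower (edgeR adjusted p = 0.00257 and 0.0134 for the first pair). Of 4 SOXB factors, Sox1 was higher (1.70 ± 0.45, edgeR adjusted p = 0.0130) and 0 were lower. In fits within 1 region, 4 SOXB factors passed the filter on low counts in hypothalamus and 2 in hippocampus. On HFHS 2 of the cofactors, 2 of the TALE partners and 1 of the SOXB factors were higher in hypothalamus and 0 were lower. In the diet comparisons 0 genes of these lists passed in edgeR.

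The genes whose log2 CPM was most like that of each factor over the 35 libraries were sought among 9820 genes. Meis2 ranked first for Emx2 (Pearson's r = 0.93), before St6galnac5 and Tcf4 (both 0.92). Chrdl1 (0.94), Ddn (0.94) and St6galnac5 (0.93) were most like Meis2, and Ephx2 (0.91), Mmgt2 and Mvd (both 0.90) most like Lhx2. Id4 (0.91), Adcy2 (0.90) and Spire1 (0.89) were most like Sox21, and Phkg1, Prelid3a (both 0.93) and Scg3 (0.92) most like Pax6. E2f6, Mtpn and Tifa reached 0.85 to 0.86 with Otx1, and Hemk1, Atp6ap2 and Sostdc1 0.71 to 0.73 with Emx1. All points share the libraries and their depth, and much of the likeness followed region. With group means subtracted, the r of Emx2 and Meis2 was 0.20, and that of Emx1 and Hemk1 was 0.27, whereas Sox21 and Id4 stayed at 0.92, Pax6 and Phkg1 at 0.88 and Otx1 and Tifa at 0.81. Among the factors themselves, Emx2 and Lhx2 had 0.80 over all libraries and 0.59 within groups, and Otx1 and Pax6 had 0.79 and 0.59.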

How the data were processed

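Each library was quantified per transcript with Salmon after FastQC, on GRCm38, per the submitters' processing notes (versions not given in the sources used here); cDNA came from SMART-Seq v4, per the labels' protocols. The deposited files hold, per the file headers, the authors' estimated counts and TPM of 140948 transcripts. TPM in the deposited files is scaled to each library's transcripts and so moves with their lengths. Both were summed per gene with GENCODE vM21 after version suffixes were removed (139852 transcripts matched, 54119 genes; 1096 unmatched ones held 0.214% to 0.535% of reads). Sums of estimated counts were rounded to whole numbers. Totals of 47578560 to 65982495 reads bound the counting error, and reads without molecular identifiers are not independent molecules.

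Tests used edgeR 4.0.16 (glmQLFit, robust, TMM, filterByExpr with 10 reads, Benjamini-Hochberg over all genes tested) in R 4.3.3: diet within each region, and region and diet-by-region contrasts in a model of all 6 groups. DESeq2 1.42.0 and limma 3.58.1 were alternatives. The SE is the log2 fold change divided by the root of F. The scripts were tested on simulated data. CPM uses TMM factors; marker levels and correlations use log2 CPM with a prior count of 2. Promoter windows are from RefSeq (GRCm38.p6), and the spliced Pax6 and Meis2 stretches are from the GENCODE vM21 transcript sequences.

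The factors and all gene lists were chosen with earlier results of these data known. All 8 factors were named; of each list up to 4 genes with the smallest p between hypothalamus and hippocampus on SC; for each factor with a mean TPM of at least 1 the 3 genes with the largest correlation, among genes whose log2 CPM averaged 3 or more and whose symbol was not a clone or predicted-gene name; and Atp1b2 and Gfap. Some genes that this rule names are not reported here. Hippocampus libraries 6 and 7 on HFHS, the Lhx2-203 contrast, and the levels of Rax, Dmrt3 and Dapk3 were singled out after their values were seen. No library duplicated another: the lowest chi-square per degree of freedom between libraries of a group was 47. P-values measure the spread between pools.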

Additional observations from a re-analysis of the deposited data

Results flagged for a closer look

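Each factor was screened for a library far from the rest of its group, in 45 combinations of factor and group, of which chance flags about 1 in 20; 4 were found. Lhx2 had 34.3 TPM in cortex library 6 on SC, where the next lowest library had 119 TPM, and 96.2 TPM in cortex library 1 on HFHS, where the next highest had 46.2 TPM. Otx1 had 1.26 TPM in cortex library 6 on SC, beside 8.23 TPM in the next lowest, and 6.76 TPM in hypothalamus library 2 on HFHS, beside 3.73 TPM in the next highest.

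Cortex library 6 on SC also had the lowest level of its group for Emx2 (10.6 TPM), Meis2 (8.39 TPM) and Pax6 (10.5 TPM), the lowest astrocyte marker level (9.38), and a TPM-weighted mean transcript length of 1034 bases, the shortest of the series. Hypothalamus library 2 on HFHS had the highest astrocyte marker level of its region (10.10). The part of these measures in the values was not tested.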

How the results depend on the processing

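Alternatives were DESeq2, limma voom with quality weights, RLE and upper quartile factors, no filter on low counts, log2(TPM + 0.1) and log2(TPM + 1) with limma, the replicate number as a block, a fit of only the groups compared, leaving out each library, and leaving out the 3 libraries of short transcripts. The number of factors past the threshold, Eomes included, stayed within 1.5 times in all comparisons except hypothalamus against cortex, where both TPM settings gave 2 in place of 4 on SC and 1 in place of 3 on HFHS; the cause was not tested. Leaving out each library gave 1 to 3 there on HFHS and 3 to 5 on SC, 3 to 4 between hypothalamus and hippocampus on HFHS, 4 on SC, 4 between hippocampus and cortex on HFHS, 4 to 5 on SC, and 0 in all diet comparisons.

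Of the region values, the sign reversed for uncalled values between hypothalamus and hippocampus. Pax6 on SC gave -0.090 with the replicate block, -0.0024 with voom, -0.20 without the 3 libraries of short transcripts and -0.16 to 0.37 with each library left out. Pax6 on HFHS gave -0.038 with upper quartile factors, -0.070 with voom and -0.13 to 0.21 with each library left out. Lhx2 on HFHS gave 0.33 with the replicate block.

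In 0 of 9 pairs of groups was every correlation of deviations between same-numbered libraries over 0.1 (range -0.064 to 0.545), so the numbers were not taken as pairs. With the replicate block, 5 factors, Eomes included, passed between hypothalamus and hippocampus on each diet, Sox21 being the added one (edgeR adjusted p = 0.0169 on SC and 0.00134 on HFHS), and against cortex hypothalamus had 3 on SC and 2 on HFHS. Of 36 diet and diet-by-region values of the tested factors, Emx1 in cortex left aside, 22 changed sign under some alternative and 0 passed (lowest adjusted p 0.205); the diet value of Emx1 in cortex ranged from -1.09 to -0.73 with each library left out and did not pass. RLE and upper quartile factors moved the median of all genes by at most 0.0762. On log2(TPM + 0.1) that median was 0.57 for hypothalamus and 0.48 for hippocampus against cortex on SC, in place of 0.065 and 0.041, and 0.30 and 0.28 on HFHS, in place of 0.012 and 0.046. Depth limits Eomes and Emx1 most.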

Other observations

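Dmrt3, a doublesex-related factor of the medial pallium, held 6.52 ± 5.39 TPM (n = 5) in hippocampus on SC and ranged from 1.94 to 11.7 TPM on HFHS. It stayed at or under 0.979 TPM in all hypothalamus and cortex libraries. These levels were picked after they were seen; the comparison of hypothalamus with hippocampus is given above with its list.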
